A study of Mus musculus with 2 samples.

Results

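The ELAV and CELF families of RNA-binding proteins were described in total RNA sequencing of the mouse midbrain at 14.5 days of embryonic development. The members were the 10 genes Elavl1 to Elavl4 and Celf1 to Celf6, taken by gene symbol from 43346 Ensembl gene rows, and all 10 were found. The series held 1 group of 2 libraries, biological replicates 1 and 2, called embryo 1 and embryo 2 here. Each library was made from 1 midbrain of 1 B6NCrl pup, per the labels, which name no treatment and give a different collection day for each pup. They give the sex as pooled male and female, although each sample is said to be 1 animal. With 2 libraries of 1 group there was nothing to test, and the values below describe these embryos.

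ELAV proteins (also called Hu proteins) carry RNA recognition motifs and bind U-rich and AU-rich stretches, mostly in the 3′ untranslated ends and introns of messenger RNAs. They are known for slowing the decay of bound transcripts and for steering splicing and poly(A) site choice. Elavl1 (HuR) is made in nearly all cells, whereas Elavl2 (HuB), Elavl3 (HuC) and Elavl4 (HuD) are classical early markers of neurons. CELF proteins bind GU-rich stretches and act on splicing, translation and decay. Celf1 and Celf2 are broadly made, and Celf3 to Celf6 are best known from the nervous system.

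The coding exons of the ELAV genes showed which pieces the neuronal members share and Elavl1 lacks. In the complete coding model with the highest level of each gene, coding exons of 104, 154 and 226 nt occurred in all 4 ELAV genes. A further coding exon of 39 nt, in the hinge between the recognition motifs, occurred in Elavl2, Elavl3 and Elavl4 and not in the Elavl1 model. Its sequence is shown because it marks the neuronal members, with capitals for the bases that are the same in all 3 genes (GENCODE M21 transcripts, GRCm38, all on the minus strand). The exons lie at chr4:91254141-91254179 in Elavl2, chr9:22024674-22024712 in Elavl3 and chr4:110209740-110209778 in Elavl4.
Elavl2 hinge exon: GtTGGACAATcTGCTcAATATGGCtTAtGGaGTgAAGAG
Elavl3 hinge exon: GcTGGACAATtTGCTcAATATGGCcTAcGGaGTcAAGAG
Elavl4 hinge exon: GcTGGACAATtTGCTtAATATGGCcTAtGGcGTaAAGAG
Identity over these 39 bases was 89.7% between Elavl3 and Elavl4, 87.2% between Elavl2 and Elavl3 and 84.6% between Elavl2 and Elavl4. Over the 226-nt exon the same pairs had 78.8%, 71.2% and 75.2%, and Elavl1 had 67.3% with Elavl2, 67.7% with Elavl3 and 69.0% with Elavl4. Over the 104-nt exon the neuronal pairs had, in the same order, 78.8%, 79.8% and 82.7%, and over the 154-nt exon 82.5%, 76.0% and 79.2%. The hinge exon was thus closer than each of these exons for each neuronal pair. For Elavl2 and Elavl4 the margin was small, at 84.6% against 82.7% over the 104-nt exon, with 6 of 39 hinge bases different.

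The 6 CELF genes also shared exon sizes. Coding exons of 83 and 80 nt occurred in the leading complete coding model of all 6, and exons of 49, 144 and 125 nt in 5, with Celf5 as the exception for each.

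Every family member was present in both midbrains. All 10 were detected, meaning a TPM of 1 or more in both embryos. TPM is a transcript level scaled for transcript length and library size, so genes can be compared with each other. The median of the members was a TPM of 90.6, against 17.3 over the 14565 genes detected. The members stood between the level that 77.9% of annotated protein-coding genes stayed below (Celf6) and the level that 97.8% stayed below (Elavl4).

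Of the ELAV genes, Elavl4 was highest. Elavl4 (ENSMUSG00000028546.13, chr4:110203722-110351909, minus strand) had a TPM of 284 in embryo 1 and 264 in embryo 2, a mean of 274 ± 13.6 (SD, n = 2 embryos, here and below). Elavl2 (ENSMUSG00000008489.14, chr4:91250763-91400785, minus strand) had 137 and 106, a mean of 122 ± 21.9. Elavl3 (ENSMUSG00000003410.7, chr9:22015005-22052023, minus strand), expressed as neurons leave the cell cycle, had 92.1 and 112, a mean of 102 ± 14.2. The ranges of Elavl2 and Elavl3 overlapped, and their order differed between the embryos: the ratio of Elavl3 to Elavl2 TPM was 0.67 in embryo 1 and 1.05 in embryo 2. Elavl1 (ENSMUSG00000040028.9, chr8:4285382-4325413, minus strand) had 86.8 and 54.0, a mean of 70.4 ± 23.1. The 3 neuronal genes summed to a TPM of 513 and 483, so Elavl1 made up 86.8 of 600 ELAV TPM in embryo 1 and 54.0 of 537 in embryo 2. Coordinates are those of GENCODE M21 on GRCm38. In bulk tissue, fewer cells of a type and less RNA per cell cannot be told apart.

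Celf4 and Celf2 led the CELF genes. Celf4 (ENSMUSG00000024268.11, chr18:25477632-25754157, minus strand), a binder of many neuronal messenger RNAs, had a TPM of 169 and 185, a mean of 177 ± 11.8. Celf2 (ENSMUSG00000002107.14, chr2:6539694-7509563, minus strand), a regulator of alternative splicing, had 150 and 146, a mean of 148 ± 2.86. Its SD was the lowest of the 10. Celf3 (ENSMUSG00000028137.5, chr3:94478295-94492198, plus strand) had 56.1 and 102, a mean of 79.2 ± 32.6. Celf5 (ENSMUSG00000034818.12, chr10:81459227-81482709, minus strand) had 48.0 and 89.6, a mean of 68.8 ± 29.5. Both sat well apart between the embryos, with embryo 2 higher. Celf1 (ENSMUSG00000005506.12, chr2:90940382-91019497, plus strand), known for binding GU-rich elements that mark transcripts for decay, had 72.4 and 63.4, a mean of 67.9 ± 6.34. Celf6 (ENSMUSG00000032297.7, chr9:59577917-59607292, plus strand) was the lowest member, with 28.3 and 35.5, a mean of 31.9 ± 5.12.

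By mean TPM the order was Elavl4, Celf4, Celf2, Elavl2, Elavl3, Celf3, Elavl1, Celf5, Celf1 and Celf6. Of the 9 neighbouring pairs in this order, 4 had ranges over the embryos that did not overlap: Elavl4 over Celf4, Celf4 over Celf2, Celf2 over Elavl2 and Celf1 over Celf6. The 5 pairs from Elavl2 down to Celf1 overlapped, so the order within each of those pairs is not fixed by these embryos. Genes further apart in the order could still be separate. Elavl2, at 137 and 106, lay above both values of Celf3, Elavl1, Celf5 and Celf1.

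**Figure D1:**
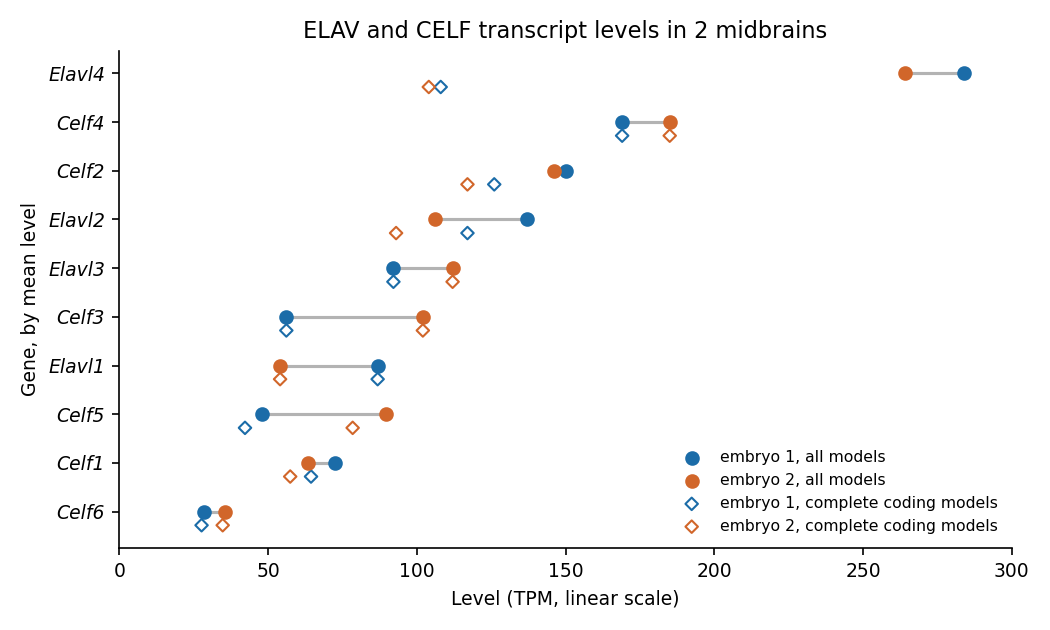
Level of each gene in TPM on a linear axis, with 1 filled circle per embryo for all transcript models and 1 open diamond per embryo for complete coding models only. Elavl4 leads at 284 and 264 over all models but has 108 and 104 over complete coding models, while Celf4 has 169 and 185.

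The place of Elavl4 depended on its short transcript models. The tables divide each gene among annotated transcripts, classed here from the annotation as complete coding, partial coding, marked for nonsense-mediated decay or non-coding. Complete coding models held only 38.2% and 39.5% of the Elavl4 TPM, although they took 79.3% and 80.3% of its expected counts, the authors' estimated reads. The leading Elavl4 model by TPM was Elavl4-211, a non-coding model of 869 nt, with 35.1% and 36.1% of the TPM but 14.3% and 14.4% of the counts. Over complete coding models alone, a comparison chosen after seeing the data, Elavl4 had a TPM of 108 and 104 (106 ± 2.93). Celf4 then came first at 177, Celf2 next at 121 ± 6.22, and Elavl4 stood beside Elavl2 at 105 ± 16.7 and Elavl3 at 102 ± 14.2. The 3 neuronal ELAV genes were thus nearly level on that scale, but the step could not lower every gene. All models listed for Elavl3 and Celf4 were complete coding, so the new order also depends on which models the annotation gave each gene.

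The other members rested mainly on complete coding models. These held 84.8% and 87.4% of the Elavl2 TPM, 89.0% and 90.5% for Celf1, 83.8% and 80.1% for Celf2, 88.0% and 87.5% for Celf5 and 97.4% and 97.7% for Celf6. Elavl1, Elavl3 and Celf3 each had 1 model in the deposited tables, all of it coding, so no shift between transcripts could be seen for them. The later GENCODE M21 annotation lists 4 models for Elavl1, 3 for Elavl3 and 15 for Celf3. Celf4 had 2 models in the tables against 10 in M21.

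**Figure D2:**
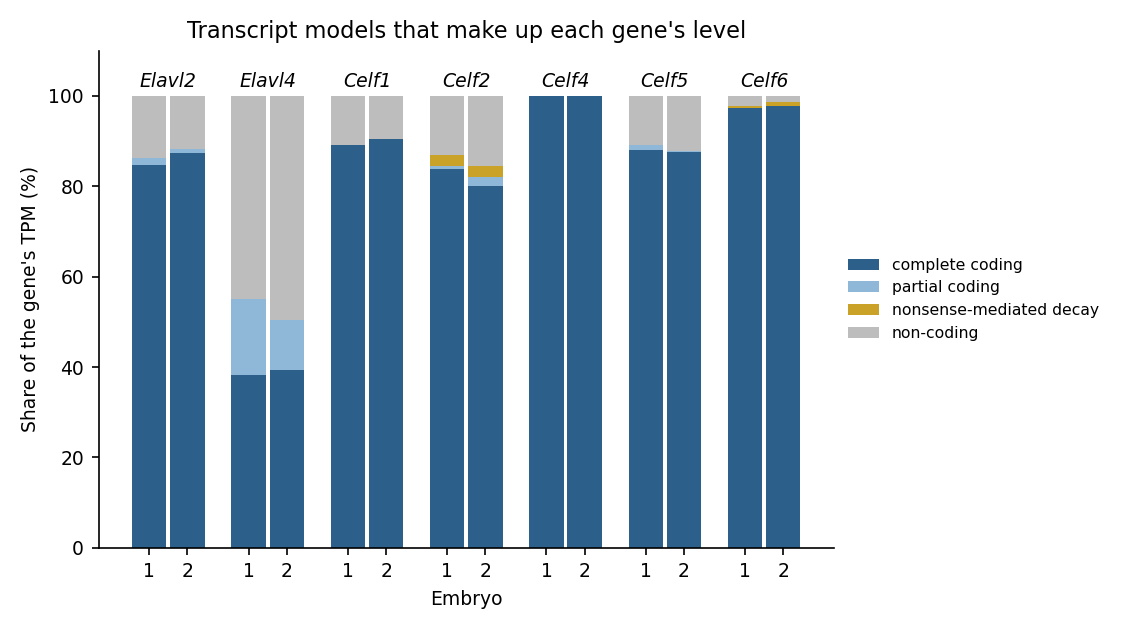
Stacked bars of the share of each gene's TPM (%) held by the 4 classes of transcript model, with 1 bar per embryo, for the 7 members with more than 1 model. Elavl4 is the gene in which non-coding and partial models hold most of the TPM, in both embryos.

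Between the embryos, Celf3 and Celf5 differed most. Expected counts were scaled by the TMM method over all genes, and a gene was called at a ratio of at least 1.5-fold, a rule of size and not a test. Celf3 had 2841 counts in embryo 1 and 5170 in embryo 2, which is 2.02-fold higher in embryo 2 (95% interval 1.93 to 2.11). Celf5 had 3421 and 6053 counts, 1.96-fold higher (1.88 to 2.04). The intervals are exact binomial ones and cover counting error only, not the variation between animals. These were 2 of 10 members called, both higher in embryo 2. Over the 14011 genes with at least 100 summed counts, 14.2% were called in either direction, 5.66% higher in embryo 2 and 8.55% higher in embryo 1. Among the 9074 genes with at least 1000 counts, the range in which all members fall, 7.37% were called. The members' share was 20.0%, and 2 calls among 10 genes are too few to be read as a result about the members as a set.

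The remaining members lay within 1.5-fold by TMM. Elavl1 was just inside, 1.45-fold higher in embryo 1 (1.41 to 1.5) with 9857 and 6129 counts. Celf6 was likewise just inside, 1.44-fold higher in embryo 2 (1.34 to 1.56) with 1211 and 1576 counts. Elavl3 was 1.35-fold (1.31 to 1.39) and Celf4 1.22-fold (1.19 to 1.25) higher in embryo 2. Elavl2 was 1.14-fold higher in embryo 1 (1.11 to 1.18). Celf2 was 1.12-fold and Elavl4 1.05-fold higher in embryo 2 by TMM, and both were lower there by TPM. Celf1 was 1.03-fold higher in embryo 1 with an interval that held no difference, from 0.996 to 1.07. In all, 7 of 10 members were higher in embryo 2 by TMM, as were 50.6% of all genes, against 6 members and 37.5% of genes by spike-ins and 5 members and 34.7% of genes by TPM. The median log2 ratio of embryo 2 over embryo 1 was 0.22 for the members and 0.01 for all genes.

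The calls of Celf3 and Celf5 held under each scaling tried, and Elavl1 crossed the line under some. Scaling by spike-in counts moved the median log2 ratio of all genes to -0.11, and the ratio of TPM values moved it to -0.13. On these shifted scales Elavl1 passed 1.5-fold, at a log2 ratio of -0.65 by spike-ins and -0.68 by TPM. Elavl4 and Celf2 differed in sign between scalings: Elavl4 had a log2 ratio of 0.07 by TMM, -0.04 by spike-ins and -0.10 by TPM, and Celf2 had 0.17 by TMM and -0.04 by TPM. Celf3 stayed at 0.90 by spike-ins and 0.87 by TPM, and Celf5 at 0.86 and 0.90.

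**Figure D3:**
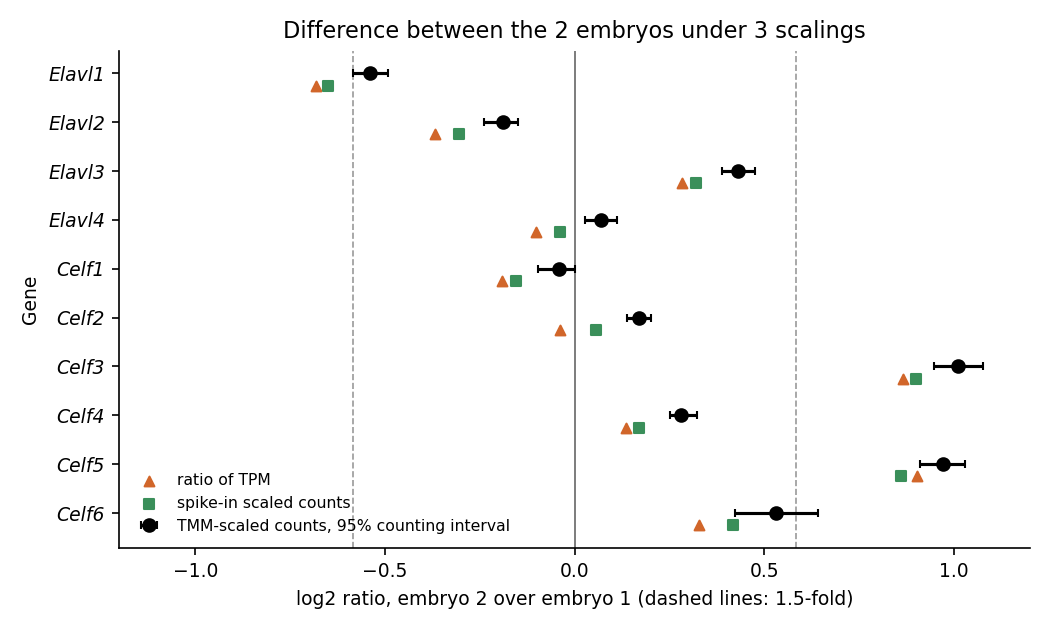
The log2 ratio of embryo 2 over embryo 1 for each gene under 3 scalings, where black circles are TMM-scaled counts with 95% counting intervals, triangles are ratios of TPM and squares are spike-in scaled counts. Celf3 and Celf5 lie beyond the dashed 1.5-fold line under each scaling, and Elavl1 crosses it under 2 of them.

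Summed by group, Celf3 to Celf6 and Elavl1 differed in opposite directions. Celf3 to Celf6 had a TPM of 301 in embryo 1 and 413 in embryo 2, or 26.8% and 35.6% of the summed level of the 10 members. The difference in that sum came mostly from Celf3 and Celf5, since the TPM of Celf4 was only 9.87% higher in embryo 2. Elavl1, at 86.8 and 54.0, made up 7.73% and 4.66% of the members. Celf1 and Celf2 together had 222 and 209, and the neuronal ELAV genes 513 and 483. The whole set had 1123 and 1159. Elavl1 had 1.55 times the TPM of Celf3 in embryo 1 and 0.529 times in embryo 2.

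Markers of other cell types differed between the embryos along with these genes. The 12 midbrain markers were all detected, with 6 higher in each embryo and a median log2 ratio of 0.05. Pou4f1 was the only one called, 1.52-fold higher in embryo 1. Embryo 1 had the higher value for each of the 14 cell cycle genes, for 11 of them by at least 1.5-fold, and their summed TPM was 583 in embryo 1 and 330 in embryo 2. All 12 mesenchyme genes that could be compared were at least 1.5-fold higher in embryo 1, with a summed TPM of 488 and 36.8. Microglial genes summed to 182 and 68.4, endothelial genes to 223 and 141 and erythroid genes to 9955 and 6475, and each of the 9 erythroid genes compared was higher in embryo 1. Of the 10 neurogenic factors, made in cells about to become neurons, 8 were higher in embryo 1, 4 of them by at least 1.5-fold, with a median log2 ratio of -0.50. Among the lists for neurons themselves, 10 of 14 immature neuron genes and 10 of 12 later neuron genes were higher in embryo 2, with median log2 ratios of 0.17 and 0.25. Called were 1 immature and 4 later neuron genes, all higher in embryo 2. Of 12 progenitor genes, 8 were higher in embryo 1 by TMM and none was called, while their summed TPM was 2154 in embryo 1 and 2209 in embryo 2. Astrocyte genes summed to 290 and 222, oligodendrocyte genes to 94.2 and 101 and choroid plexus genes to 207 and 83.0. For comparison, 5.66% of all genes compared were called higher in embryo 2 and 8.55% higher in embryo 1. No marker of these lists was at 0 in both embryos. The part of cell makeup in the ratios of the members was not tested.

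Proteins that bind AU-rich elements and MBNL proteins gave the following. Of 7 proteins that bind AU-rich elements, 2 were higher in embryo 2 and 5 in embryo 1, with a median log2 ratio of -0.16. Called among them were Zfp36l1, 1.52-fold higher in embryo 1, and Zfp36, 1.81-fold higher in embryo 1, both known to speed the decay of such transcripts. Over all genes compared 14.2% were called in either direction, and 2 calls among 7 genes are too few to be read as a result about the list. Tia1 was the highest of the list at a TPM of 252 ± 48.0 and Zfp36 the lowest at 2.98 ± 1.41. Of the MBNL proteins, splicing regulators often opposed to CELF proteins, Mbnl1 had a TPM of 48.9 ± 6.22 and Mbnl2 8.28 ± 2.59. Mbnl3 had 0.80 ± 0.693, with 66 and 14 counts, too few to be compared by the rule used.

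Genes listed here as reported targets of the families were mixed in direction. Of the 15 ELAV targets compared, 10 were higher in embryo 2 and 5 in embryo 1, with a median log2 ratio of 0.26. The called ones were Cdkn1a, a cell cycle inhibitor, at 1.65-fold, and Ache, the acetylcholine-degrading enzyme, at 1.71-fold, both higher in embryo 2. The cyclins Ccna2 at 2.17-fold and Ccnb1 at 2.19-fold were higher in embryo 1, and both also belong to the cell cycle list. Over all genes compared 14.2% were called in either direction, and so few calls are not read as a result about the targets. Gap43, a growth cone protein, was the highest at a TPM of 1263 ± 160. Kcna1, a potassium channel, was the lowest at 0.615 ± 0.120. Of the 9 CELF targets compared, 7 were higher in embryo 2 and 2 in embryo 1, with a median log2 ratio of 0.15, and none was called. Mapt, the tau gene and on both target lists, was highest of the CELF list at a TPM of 663 ± 8.28. Tnnt2, a troponin gene, was lowest at 0.190 ± 0.113 and had too few counts to be compared. Gap43 and Mapt are also on the immature neuron list. The ELAV target Msi1 is on the progenitor list and the CELF target Grin1 on the later neuron list. The directions of the target lists therefore repeat in part those of the marker lists.

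Optional pieces inside the coding sequence differed in use. The 39-nt hinge exon was present in nearly all transcripts that could carry it, at 96.9% and 96.0% in Elavl2 and 97.1% and 96.6% in Elavl4. Over complete coding models of Elavl4 it was in 94.5% and 93.5%. These percentages are the TPM of models with the piece over that of models with and without it. Models that do not span the piece are left out, so they are not shares of the whole gene. Elavl4, Celf1 and Celf2 also had pieces added by a second splice site or a whole exon that could be skipped, and each of the 5 pieces shown is a multiple of 3 bases long. They are printed because their use sets the transcripts apart, with capitals for the optional bases and lower case for the first or last 9 bases of the exon that both forms share. The Celf2 exon of 144 nt is wholly optional and is in lower case. All are from GENCODE M21 transcripts on GRCm38. The Elavl4 piece is at chr4:110206660-110206701 (minus strand) and the Celf1 piece at chr2:91006620-91006631 (plus strand). The Celf2 pieces are at chr2:6560659-6560670, chr2:6553965-6553982 and chr2:6549832-6549975 (minus strand).
Elavl4 42 nt: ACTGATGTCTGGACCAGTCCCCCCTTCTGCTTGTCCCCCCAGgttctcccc
Celf1 12 nt: CTTTATTTGCAGctcctacag
Celf2 12 nt: cactagcagGTACCATAAACA
Celf2 18 nt: TTGCTCAAATGCTCTCAGgtatggcgg
Celf2 144 nt: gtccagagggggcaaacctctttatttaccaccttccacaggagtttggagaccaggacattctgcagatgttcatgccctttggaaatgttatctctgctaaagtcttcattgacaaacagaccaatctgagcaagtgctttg
The printed ends show the splice signals: the pieces added by an earlier acceptor end in AG, and the 12-nt Celf2 piece added by a later donor begins with GT.

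The Elavl4 piece of 42 nt follows directly on the hinge exon. The Elavl4 models that could be scored for it had a TPM of 202 in embryo 1 and 193 in embryo 2, less than the whole gene. It was in 48.0% and 47.0% of that TPM. Over the complete coding models among them it was in 94.6% and 93.0%, since the short Elavl4-211 lacks it. The models with this piece, Elavl4-202 and Elavl4-203, also carry the 39-nt hinge exon. In Celf1 the 12-nt piece was in 79.5% of the TPM in embryo 1 and 69.2% in embryo 2. The Celf2 donor piece of 12 nt was in 14.7% and 5.21%. The 18-nt piece was rare in both, at 8.15% and 6.53%. The 144-nt exon, the same size as an exon in 4 other CELF genes, was in 79.2% and 84.2%. A 3-nt donor shift in Celf5 was in 93.5% and 85.9%, and a 3-nt acceptor shift in Celf6 in 66.4% and 72.4%. The form without the piece was Celf1-204 alone in Celf1, Celf6-202 alone in Celf6 and mainly Celf5-203 in Celf5. These percentages thus follow the shares of single models and are not separate observations from them. The 2 libraries cannot say whether the differences between the embryos in these pieces exceed the usual spread.

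**Figure D4:**
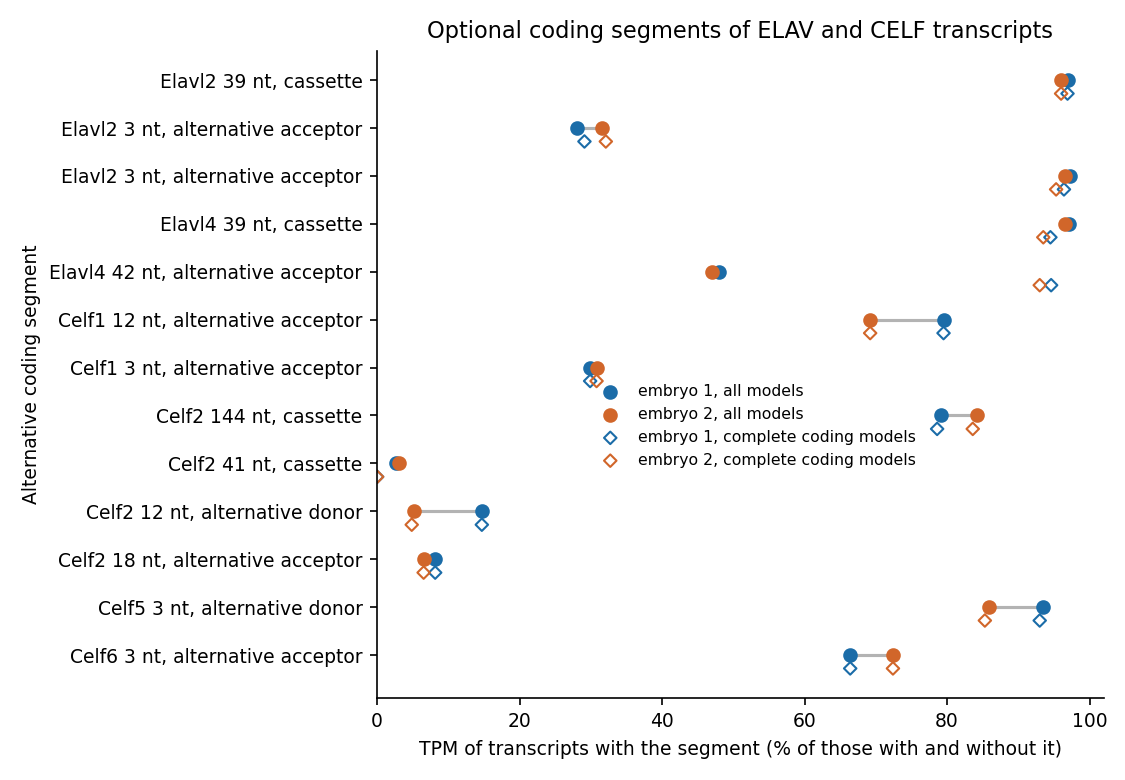
TPM of models with each of 13 optional coding segments, as a percent of that of models with and without it. There is 1 filled circle per embryo for all such models and 1 open diamond for complete coding models. The 39-nt hinge exons of Elavl2 and Elavl4 lie near the right edge in both embryos, and the Elavl4 42-nt piece moves from 48.0% and 47.0% to 94.6% and 93.0% when only complete coding models are counted.

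Of the 91 transcripts of the 10 genes in the tables, 24 had at least 10% of their gene's TPM in either embryo. Deposited interval bounds of the TPM did not overlap between the embryos for 8 of the 24, among them the single models of Elavl1, Elavl3 and Celf3. Over the 27681 transcripts with that share in any detected gene, 26.0% had bounds apart, so the members' count is near the background. The level of these bounds is not stated in the file headers. Apart from the single models, they lay apart for Elavl2-209, Celf2-224, Celf5-201, Celf5-203 and Celf6-201. Celf2-224 is a coding model of 2223 nt that contains the 12-nt donor piece and lacks the 144-nt exon. It had 11.0% of the Celf2 TPM in embryo 1 and 3.59% in embryo 2. Elavl2-209 had 33.5% and 24.8% of the Elavl2 TPM, and Elavl2-201 led in embryo 2 with 26.9%. Celf5-203 had 5.34% and 12.6% of its gene while Celf5-201 had 81.9% and 73.8%. In Celf1, bounds overlapped for each transcript named: Celf1-204 had 18.2% and 27.9% and Celf1-205 25.0% and 15.4%. Celf2-206 was the leader of Celf2, with 57.4% and 59.0%, and Celf4-201 of Celf4, with 81.4% and 80.4%. The same transcript led in both embryos for 8 members, Elavl2 and Celf1 being the exceptions.

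Start sites were compared over complete coding models, with starts within 100 bases taken as 1. They are numbered from the 5′ side of the gene. Celf2 used mainly start 3, at 77.5% of its complete coding TPM in embryo 1 and 86.4% in embryo 2, and start 5 had 20.1% and 10.6%. Start 5 includes Celf2-224, which had 16.5 of its 25.3 TPM in embryo 1 and 5.24 of 12.4 in embryo 2. This model also has the 12-nt donor piece and lacks the 144-nt exon, so the differences in these 3 features are not separate observations. Elavl4 differed little, with 70.1% and 71.9% at start 4 and 21.6% and 21.4% at start 5. Elavl2 used start 2 for 66.8% and 60.6% and start 3 for 29.9% and 33.4%. These shares rest on how reads were divided among models, since no start sites were measured.

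U-rich stretches, the kind of sequence ELAV proteins bind, were also counted in annotated transcripts of the members. The first 1000 bases after the stop codon of the M21 transcript with the longest 3′ region were searched on the transcript strand, overlapping matches included. This transcript was chosen by its annotation and not by its level in these embryos. The Celf3 model searched was not in the deposited tables, and the Celf6 model searched had a TPM of 0 in both embryos. The site counts therefore describe annotated sequence and not always RNA present in these midbrains. The motif TTTNTTT occurred in 8 of 10 members, all except Celf4 and Celf6, against 72.9% of 10155 genes, with a median of 5.5 sites against 2. Elavl1 and Celf5 had the most, 16 each. The 30 bases with the most sites are shown for both, with the sites in capitals, at bases 10 to 39 after the stop codon in Elavl1 and 928 to 957 in Celf5.
Elavl1 3 prime stretch: gcTTTTTTTTTCTTTccttcTTTTTTTTTT
Celf5 3 prime stretch: TTTTTTTTTTTTTTCTTTTTTTCTTTCTTT
The AU-rich motif TATTTATT occurred in 2 of 10 members, Elavl2 and Celf2, against 11.9% of genes. The GU-rich TGTTTGT, part of an element bound by Celf1, occurred in 2 of 10, Elavl1 and Celf1, against 21.3% of genes. A match describes the letters and says nothing of binding.

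Both libraries were deep for these genes, with 32.7 × 10⁶ estimated reads in the table of embryo 1 and 30.2 × 10⁶ in that of embryo 2, of which spike-in RNAs took 3.15% and 3.32%. Between the embryos the common biological coefficient of variation was 26.7% over 18910 genes. For 8 of 10 members the expected counts were whole in both libraries (within 0.005), Celf2 and Celf5 being the exceptions. Counts were whole in both libraries for 69.8% of detected genes. No source used here gives the strand protocol, so reads in exons shared with overlapping genes cannot be told apart. Overlapping genes that were analysed had few counts: Ccl25 at Elavl1 had 142 and 150, Riiad1 at Celf3 183 and 214, Gm26565 at Celf2 18.9 and 0.02, and Gm16105 at Celf5 2.88 and 20.7. Gm49318, which shares 256 exon bases with Elavl3 on the same strand in M21, was not analysed here.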

How the data were processed

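Total RNA libraries from 2 embryos were analysed. Per the labels, RNA in a size range above 200 was extracted with mirVana, 10 ng entered each library and ERCC spike-ins were added. The deposited tables used mm10 and GENCODE M4, per the record deposited beside each. No source used here names the quantifier. The deposited expected counts are the authors' estimated reads. TPM and FPKM are the authors' values, per the file headers, with FPKM used only to check the order of levels. Symbols and exon structures came from GENCODE M21 (GRCm38), which named 42462 of 43346 Ensembl rows. Spike-ins and 26249 other rows, which held 6 and 14 counts, stayed out of library sizes.

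Counts were scaled with TMM (edgeR 4.0.16), with a prior count of 0.5 for log2 ratios. DESeq2 1.42.0 size factors were an alternative. Ratios and intervals used Python 3.11.15 and scipy 1.17.1. Reads carried no molecular identifiers as far as the labels say and are not independent molecules, so intervals hold counting error alone. All 10 members were described in full. Of their transcripts, those with at least 10% of their gene's TPM were named, and of other lists those called at 1.5-fold, the highest and the lowest. Of the 91 transcripts, 88 had the same length in both annotations. Classes came from M21, and pieces were compared among transcripts of unchanged length. The members and lists were chosen with earlier results of these data known.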

Additional observations from a re-analysis of the deposited data

How the results depend on the processing

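All 10 members remained detected at a TPM of 0.5 or 5. The count of members called at 1.5-fold was 2 under DESeq2 size factors, total counts, posterior mean counts and both count filters, 3 under spike-in scaling and the TPM ratio, and 1 at 2-fold. Rescaling TPM over Ensembl rows moved the neuronal ELAV sum from 498 to 540 and the Celf1 and Celf2 sum from 216 to 234. Over complete coding models only, chosen after seeing the data, these sums were 313 and 182, and 5 of 10 members kept their place in the order of level. With 1 embryo left out, 5 to 6 members kept it. Under those omissions the summed level ranged from 483 to 513 for the neuronal ELAV genes, from 209 to 222 for Celf1 and Celf2, and from 301 to 413 for Celf3 to Celf6. A complete coding model led in 9 members by TPM and in 10 by counts. Of 210 recomputed values for single genes, transcripts and pieces, 148 stayed within their spread or interval. Part of these could not move. With 2 embryos, the value of 1 embryo always lies within 1 SD of their mean, and the share of a gene's only model is fixed. The count is therefore no measure of how robust the values are. No called ratio changed sign. No paired analysis was possible because there is only 1 group. With 2 embryos, no difference between them can be separated from individual variation.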
